A study of Homo sapiens with 38 samples.

Results

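Microexons are the shortest exons that the splicing machinery still recognises. In this report a microexon was an internal exon of 3 to 30 nt in a GENCODE transcript listed in the deposited quantification tables, for which another transcript of the same gene joins the same neighbouring exon ends directly. The annotation held 1101 such microexons in 909 genes, out of 35604 skipped exons of any length in 13009 genes. The rule for this set used structure alone, but it was set with earlier results of these data known. Where an exon occurred in several events, the event with the highest mean TPM stood for it. Inclusion is the share (%) of TPM that came from transcripts with the microexon, out of those with it and those that skip it, and differences in inclusion are given in percentage points. TPM is the abundance of a transcript scaled for its length and for the library total. A microexon was tested where inclusion plus skipping averaged at least 1 TPM. By this filter 661 microexons were tested in at least 1 fraction (647 in nuclear RNA and 613 in cytoplasmic RNA), 440 were not, and 92 of all 1101 had no TPM in any library. There were 24 pairs of microexons that overlap, involving 45 exons, and both members of each pair share an end, so the 1101 are not all independent of each other.

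RNA-seq was performed on nuclear and cytoplasmic RNA from HCT116 cells, a human colorectal carcinoma line. Wild-type cells were compared with lines edited with CRISPR to lack AGO1, AGO2, both (AGO1/2) or AGO1, AGO2 and AGO3 (AGO1/2/3), the Argonaute proteins that carry microRNAs. Each genotype and fraction had 3 libraries, which made 10 groups and 30 libraries. No drug or other treatment distinguished the groups. The library labels carry P numbers, read here as different passages of 1 line per genotype. Wild-type libraries came from passages 27, 28 and 29, AGO1 knockout libraries from 6, 7 and 8, AGO2 from 8, 9 and 10, AGO1/2 from 9, 10 and 11, and AGO1/2/3 from 11, 12 and 14. Genotype, clone and passage therefore cannot be told apart, and p-values measure the spread between passages of a line.

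In neurons, a large set of microexons is switched on by SRRM4, a serine/arginine-rich protein that acts through sequence just upstream of the exon, often containing TGC. Most microexons of that set preserve the reading frame and insert a few amino acids at the surface of proteins of vesicle traffic, the cytoskeleton and GTPase signalling. PTBP1 represses many of them outside the nervous system, and RBFOX proteins, which bind TGCATG, promote others. Epithelial cells such as HCT116 use a smaller set.

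The microexons below are shown because the results turn on them or because a related gene carries an exon of the same length at the corresponding place. Each is written 5′ to 3′ on the strand of its gene from hg38, with the microexon in capitals and flanking intron in lower case. The first 8 pairs are microexons of related genes, and the pairs were chosen after their values were seen.
DNM1 (chr9:128239985-128239996, plus strand): acctctttgcagGATGAGATTCTGgtgagt
DNM2 (chr19:10808569-10808580, plus strand): gcatattcaaagGGGGAGATCCTGgtaagt
DST (chr6:56468982-56468999, minus strand): tttatcagTTCTTCCTGGGAAATCAGgtat
MACF1 (chr1:39465095-39465112, plus strand): gtctatagTTCTTCCTCGGCAATCAGgtac
PPP3CA (chr4:101029166-101029195, minus strand): CTACTGTTGAGGCTATTGAGGCTGATGAAG
PPP3CB (chr10:73439872-73439901, minus strand): CCACAGTTGAGGCTATTGAGGCTGAAAAAG
RAPGEF2 (chr4:159344036-159344059, plus strand): acagGAAGAAGAAATGGCGGAGTTTGGGgt
RAPGEF6 (chr5:131450023-131450046, minus strand): acagGAAGAAGAGGTGGCGGAGTCTGGGgt
TEAD1 (chr11:12878889-12878900, plus strand): tattgtatccagGTAACAAGCATGgtaagt
TEAD2 (chr19:49355959-49355970, minus strand): ccccacgggcagGCTCTGAACGTGgtaagt
MEF2A (chr15:99703362-99703385, plus strand): acagTCGGAGGAAGAGGAATTGGAGTTGgt
MEF2C (chr5:88730211-88730234, minus strand): tcagTCTGAGGATGTCGACCTGCTTTTGgt
ASXL1 (chr20:32367727-32367729, plus strand): ctttgcctatagAAGgtaaat
ASXL2 (chr2:25835538-25835540, minus strand): ttccaactccagAAGgtaaga
CYTH1 (chr17:78696007-78696009, minus strand): cccaaactccagGAGgtatgt
CYTH2 (chr19:48477717-48477719, plus strand): tgtctgccccagGAGgtaggt
NCKAP1 (chr2:183024978-183024995, minus strand): ttccccagCAAGGACAAGTTTGGAAGgttt
SNX14 (chr6:85538838-85538864, minus strand): agAGGTAGCCTAAGTTTGGATGATTTTCGg
BAZ2B (chr2:159397074-159397100, minus strand): agGAGTTGGAGAGGCATAGACTAGATATGg
AGK (chr7:141562107-141562110, plus strand): ccttggctatagATAGgtttag
RPS24 (chr10:78037439-78037441, plus strand): tctggattacagAAGgtaaca
KIF21A (chr12:39330242-39330262, minus strand): acacagATCTAGATAGCGTACCATTAGgta

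The exons of DST and MACF1, giant linkers of actin and microtubules, were identical at 16 of 18 positions. The DST exon was included at 65.1% in wild-type nuclear RNA and the MACF1 exon at 19.4%. With estimated reads in place of TPM their means over all libraries were 95.3% and 13.3%, in place of 69.3% and 32.9%, and with transcripts of unchanged length 82.2% and 60.7%. PPP3CA and PPP3CB, which encode catalytic subunits of the phosphatase calcineurin, were identical at 26 of 30 positions and included at 30.4% and 82.3%. RAPGEF2 and RAPGEF6, exchange factors for Rap GTPases, matched at 21 of 24 positions, with inclusion of 71.7% and 5.08%. The dynamin exons of DNM1 and DNM2 matched at 9 of 12 positions and were included at 74.4% and 95.5%. The 3-nt exons of ASXL1 and ASXL2, polycomb-associated chromatin proteins, were both AAG, and those of CYTH1 and CYTH2, exchange factors for Arf GTPases, were both GAG. ASXL1 was included at 85.4% and ASXL2 at 35.5%, against 16.9% for CYTH1 and 26.8% for CYTH2. MEF2A and MEF2C, transcription factors of muscle and neurons, matched at 15 of 24 positions and were included at 55.8% and 13.9%. TEAD1 and TEAD2, which act in Hippo signalling, matched at 5 of 12 and were included at 10.8% and 16.2%. These are levels within genes, and no test was made between genes.

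Nuclear libraries held 20431557 to 26536692 estimated reads in wild-type cells and 31252459 to 54097984 in the knockouts, and cytoplasmic libraries 39476205 to 43281746 and 66451720 to 79731793, so wild-type values carry the larger counting error. AGO1 mRNA fell in lines that lack it, from a mean of 11.2 TPM in wild-type nuclei to 3.78, 2.73 and 2.65 in AGO1, AGO1/2 and AGO1/2/3 knockout nuclei. AGO2 mRNA was 53.0 TPM in wild-type nuclei and 29.98, 34.3 and 26.1 in nuclei without AGO2, without AGO1/2 and without AGO1/2/3, a difference that was not called in AGO1/2 (log2 difference -0.18, edgeR adjusted p = 0.054). AGO3 mRNA was 20.5 TPM in wild-type nuclei and 14.7 in AGO1/2/3 knockout nuclei, but also 14.6, 14.9 and 15.0 in the AGO1, AGO2 and AGO1/2 lines, which keep AGO3, and in the cytoplasm it rose by 0.34 on the log2 scale in AGO1/2/3 (edgeR adjusted p = 0.0024). mRNA does not report the protein of an edited gene. Epithelial markers moved with genotype: they summed to 1168 to 1279 TPM in wild-type nuclei, 2636 to 2801 in AGO1/2 and 2044 to 2395 in AGO1/2/3 knockout nuclei. Cytoplasmic sums did not rise: they were 1192 to 1358 TPM in wild type, 819.6 to 1001 in AGO1/2 and 1089 to 1343 in AGO1/2/3. In AGO1/2 knockout nuclei the keratin KRT8 rose by 1.34 on the log2 scale, while CDH1 fell by 2.18 and EPCAM by 0.56. In the cytoplasm of that line CDH1 fell by 3.08 and KRT8 moved by 0.051 (edgeR adjusted p = 0.749, not called). DES, a muscle marker, rose by 2.46 on the log2 scale in AGO1/2 knockout nuclei, from 0.961 TPM in wild type. ACTN2, also a muscle marker, averaged 0.068 TPM in wild-type and 0.027 in AGO1/2 knockout nuclei, too low to be tested. In AGO1/2 knockout cytoplasm ACTN2 fell by 2.76 (edgeR adjusted p = 5.06e-04). The muscle markers MYOG and CKM reached at most 0.0231 and 0.0223 TPM in any library. Neuronal markers summed to 35.7 to 80.1 TPM over the 30 libraries (with ELAVL4 at 0), muscle markers to at most 5.44 and fibroblast markers to at most 6.34 TPM. Single neuronal markers moved in opposite directions in AGO1/2 knockout nuclei: SNAP25 fell by 4.28 and SYT1 by 1.49, while TUBB3 rose by 1.21. SYN1 was not called there. Nuclear retained RNAs moved with genotype: MALAT1 was 25.5 times higher in nuclear than in cytoplasmic RNA of wild-type cells and 12.3 to 13.0 times higher in the knockouts. The summed level of nuclear RNAs was 2789 to 3665 TPM in wild-type nuclei, 1282 to 1495 in AGO1/2 and 1259 to 1559 in AGO1/2/3 knockout nuclei. The part of these markers in the results below was not tested.

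Most microexons were skipped. In wild-type nuclear RNA the median inclusion of the 647 tested microexons was 12.6%, against 52.8% for the 20078 longer tested exons. Below 10% inclusion lay 310 microexons (47.9%), above 90% lay 88 (13.6%), and 249 (38.5%) lay between. Of the longer exons 33.8% were below 10% and 32.2% above 90%. Frame preservation set microexons apart from longer exons in the annotation: 786 of 1101 (71.4%) had a length that is a multiple of 3, against 41.1% of longer skipped exons. The commonest lengths were 27 nt with 135 exons, 24 nt with 120 and 30 nt with 111, and 28 exons were 3 nt long. Among the tested microexons, 449 multiples of 3 had a median inclusion of 15.0%, with 46.1% of them between 10% and 90%. Those of other lengths had a median of 6.35% and 21.2% of them in that range. Most of the tested microexons, 499 of 647 (77.1%), were coding, compared with 54.2% of longer exons. The motif TGC, searched on the gene's strand in the last 20 nt of the upstream intron, occurred before 262 tested microexons (40.5%) and before 29.1% of longer exons. It was found before 44.8% of tested multiples of 3 and 30.8% of other lengths, and before 51.2% of exons of 3 to 9 nt. TGCATG within 30 nt on either side was found at 4.02% of tested microexons and 1.66% of longer exons. A match of letters describes the sequence and not a bound factor.

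The 10 most abundant microexons with intermediate inclusion were described across genotype and fraction. RPS24, a protein of the small ribosomal subunit, carried a 3-nt exon at a mean of 1084 TPM, the highest of all. Its wild-type nuclear inclusion was 19.9, 22.5 and 29.3%, and its group means ranged from 20.6 to 24.6% over the 10 groups. TKT, transketolase of the pentose phosphate pathway, had the narrowest range of the 10, with group means of 62.2 to 64.0% for its 24-nt exon. The 12-nt exon of KDM1A, the histone demethylase LSD1, had group means of 20.2 to 24.7%. The 6-nt exon of AP2M1, the medium subunit of the clathrin adaptor AP-2, was included at 78.2, 76.9 and 79.2% in wild-type nuclei and had group means of 72.7 to 80.5%. The 30-nt exon of ACLY, which makes cytosolic acetyl-CoA, lay between 70.7 and 75.4%. In the 5′ UTR, the 26-nt exon of HNRNPC, an hnRNP core protein, was at 61.0 to 71.3%, and the 28-nt exon of HDAC2, a histone deacetylase, at 51.8 to 64.1%. PSAP, the saposin precursor, ranged from 23.8 to 36.9% for its 9-nt exon, and PPP3CA from 26.9 to 37.3%. The level itself depended on the transcripts used. Over the 30 libraries PSAP averaged 31.5%, but 4.93% with estimated reads in place of TPM. With only transcript pairs alike in every other intron HNRNPC averaged 35.2% in place of 67.9% and HDAC2 95.3% in place of 58.1%. With transcripts of unchanged length FLNA averaged 0.414% in place of 68.0%, and PPP3CA 15.0% in place of 32.3%, and ACLY 38.3% in place of 72.9%. TKT averaged 92.9% with alike pairs in place of 63.2%. RPS24 and AP2M1 moved by under 3 points in every alternative.

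Microexons in genes that host neural microexons were measurable in these epithelial cells. The list names genes, so not every microexon counted here is known from the neural programme. Of 124 microexons in genes of a list of neural microexon hosts, 86 were tested in nuclear RNA, with a median wild-type inclusion of 13.9%, and TGC preceded 58.1% of them. The most abundant in that list was the 21-nt exon of EIF4G1, the scaffold of translation initiation, which was nearly always skipped, with group means of 1.02 to 3.25%. The 18-nt exon of DST was at 65.1 to 73.1%, the 27-nt exon of the receptor phosphatase PTPRF at 40.0 to 46.6% and the 24-nt exon of PICALM, a clathrin assembly protein, at 57.6 to 69.1%. A 30-nt exon of DNM2 was at 0% in all 10 groups. Over the 30 libraries the 27-nt exon of PTPRF averaged 43.1%, but 3.13% with transcripts of unchanged length, and EIF4G1 1.70%, but 0.0081% with transcript pairs alike in every other intron.

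**Figure D1:**
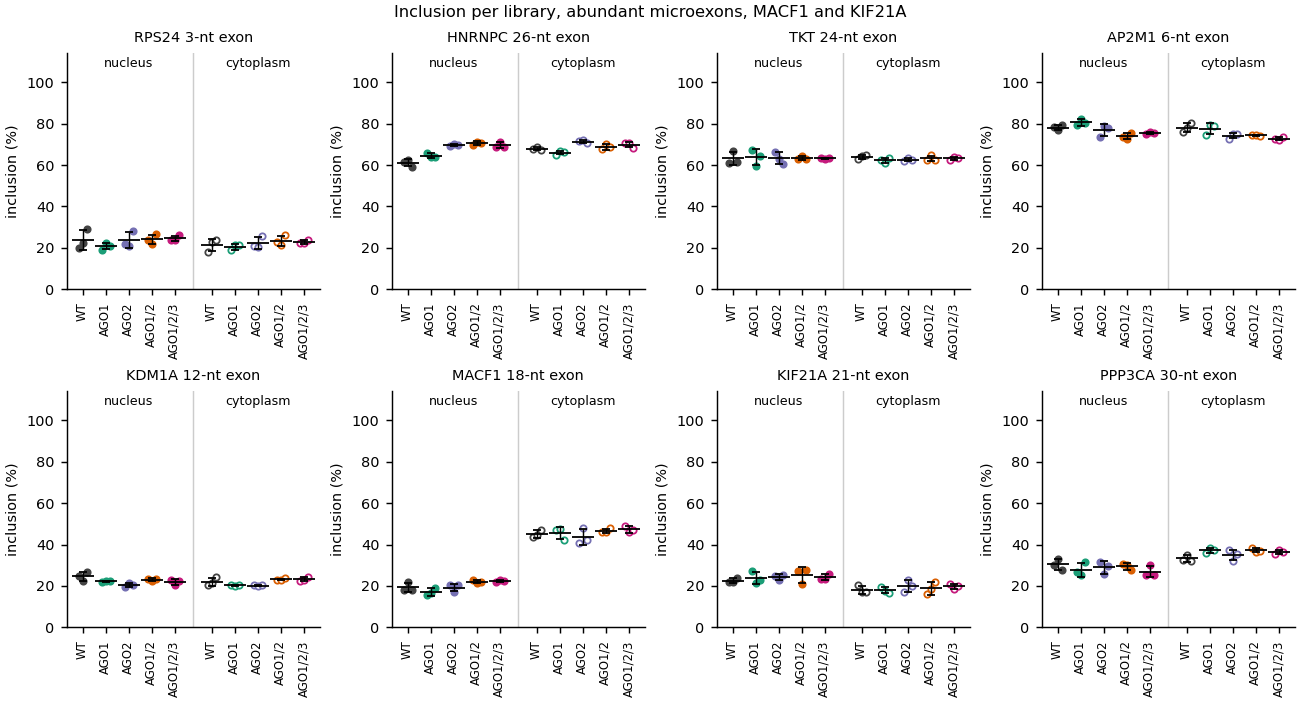
Inclusion (%, vertical) in each of the 30 libraries for 8 microexons, by genotype, with nuclear RNA on the left (filled) and cytoplasmic RNA on the right (open) of each panel. Bars are the mean and SD of 3 libraries, and MACF1 is the panel in which all cytoplasmic points lie above all nuclear points.

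The first comparison asked which microexons differ between nuclear and cytoplasmic RNA of wild-type cells. Of 640 tested microexons, 95 were called: 48 were higher in the nucleus and 47 in the cytoplasm. Over all skipped exons 14% were called, 7.53% with higher and 6.48% with lower nuclear inclusion, and microexons at 14.8% lay near that share. Calls are microexons with limma adjusted p up to 0.05 whose mean inclusion differed by 10 points or more. The calls in knockout cells were 67 microexons in AGO1, 59 in AGO2, 36 in AGO1/2 and 38 in AGO1/2/3, beside 11.1%, 9.61%, 6.24% and 6.76% of all tested exons.

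MACF1 carried 2 microexons that were more included in the cytoplasm. The 18-nt exon was included at 18.01, 21.9 and 18.1% in wild-type nuclei and at 43.4, 44.7 and 47.2% in wild-type cytoplasm. These libraries did not overlap, and the nuclear mean was lower by 25.8 points (log2 ratio change -1.77 ± 0.15, SE, limma adjusted p = 1.9e-09). The 15-nt exon of MACF1 was at 0.331, 0 and 0% in wild-type nuclei and at 34.3, 27.1 and 28.5% in the cytoplasm, again without overlap (limma adjusted p = 1.4e-08). Its mean over all libraries was 15.7%, but 4.03% with estimated reads in place of TPM. The 18-nt exon averaged 32.9%, but 13.3% with estimated reads and 60.7% with transcripts of unchanged length. The same direction was seen for SH3GLB2, an endophilin, and TRRAP, a scaffold of histone acetyltransferases, both named after their values were seen. The 12-nt exon of SH3GLB2 had wild-type means of 0.512% in the nucleus and 22.3% in the cytoplasm. The 21-nt exon of TRRAP was at 0% in all nuclear groups and at 36.9 to 48.5% in the cytoplasmic ones, at a mean of 2.16 TPM. For MACF1, SH3GLB2 and TRRAP the difference between fractions was not followed in the alternatives or with libraries left out.

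The 8 largest wild-type differences were in microexons with a mean of 1.001 to 9.80 TPM, and apart from SEPTIN7 none of the 8 had an inclusion and a skipping transcript alike in every other intron. The 4-nt exon of AGK, a mitochondrial lipid kinase, was at 32.3, 23.4 and 35.01% in nuclei and 69.7, 74.7 and 74.2% in the cytoplasm, a nuclear mean lower by 42.6 points (log2 ratio change -2.60 ± 0.23, SE, limma adjusted p = 4.8e-09). The 30-nt exon of ARHGAP26 was lower in the nucleus by 64.1 points, the 23-nt exon of FSD1L by 45.8 and the 13-nt exon of GDAP1 by 42.8. DNM1 was higher in the nucleus by 43.04 points at a mean of 1.001 TPM, and the 27-nt exon of COL13A1 at 69878039 by 96.1 at a mean of 1.002 TPM. The 5-nt exon of SEPTIN7, a septin filament protein, was higher by 68.2 points, but the difference was 0 when only transcript pairs alike in every other intron were used. A 24-nt exon of PRKACB, the protein kinase A catalytic subunit, was lower by 41.5, a call lost without cytoplasmic passage 27 or nuclear passage 27 or 28, with a difference of 8.49 points in the opposite direction without nuclear passage 28 and of -91.5 points without nuclear passage 29. PRKACB was no longer called with estimated reads in place of TPM.

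**Figure D2:**
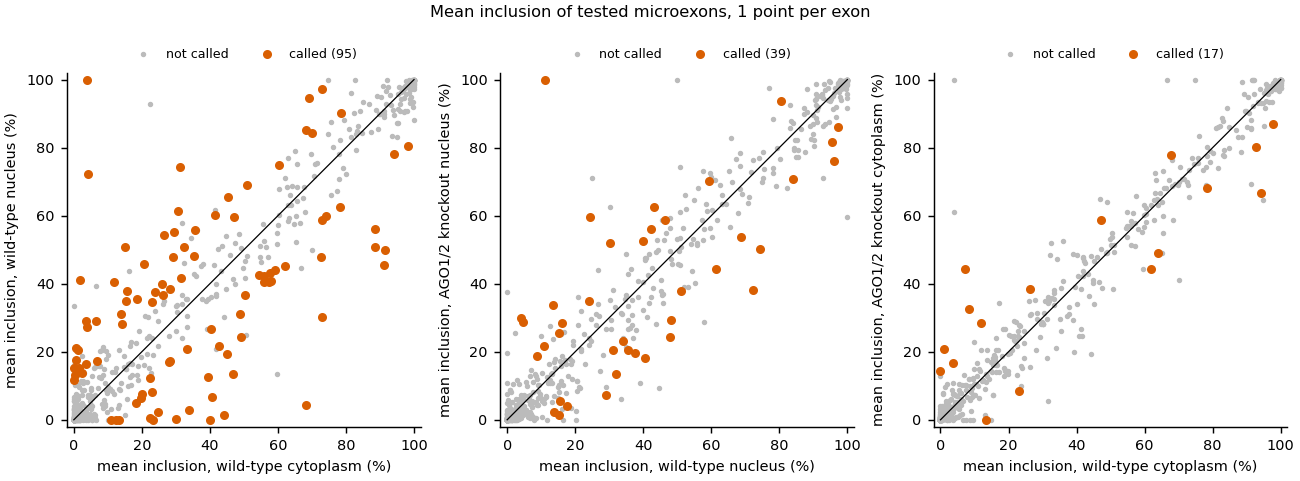
Mean inclusion (%) of tested microexons in 3 comparisons: wild-type cytoplasm against wild-type nucleus, and AGO1/2 knockout against wild type in nuclear and in cytoplasmic RNA. Each point is 1 microexon and called ones are coloured, 95, 39 and 17 in the 3 panels, lying on both sides of the diagonal.

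The next comparison asked how microexon inclusion differs in nuclear RNA of AGO knockout cells. In AGO1/2 knockout nuclei 39 of 647 microexons were called, 17 with higher and 22 with lower inclusion. Over all skipped exons 4.69% were called, 2.25% gained and 2.44% lost, and the microexon shares were 6.03%, 2.63% and 3.40%. In nuclei of the triple knockout 22 were called, 11 in each direction (3.40%), beside 2.88% of all exons, with 1.42% gained and 1.46% lost. The wild-type libraries are shared by both comparisons. The median change over tested microexons was 0 in both. Of the called microexons, 32 of 39 (82.1%) and 16 of 22 had a length that is a multiple of 3, against 69.4% of tested microexons and 44.1% and 45.4% of all called exons. The wild-type and knockout libraries did not overlap for 161 of 640 microexons (25.2%) in AGO1/2 and 141 of 640 (22.03%) in AGO1/2/3 knockout nuclei, beside 21.6% and 18.4% of all tested exons. Without nuclear AGO1/2 passage 10, 25 microexons were called in place of 39, beside 3.32% of all exons in place of 4.69%.

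The calls of DNM2, NCKAP1, ANK3 and COL13A1 (at 69872184) in AGO1/2 knockout nuclei held in each alternative and leave-out where the exon had a value. Those were 8 alternatives for DNM2, 7 for NCKAP1 and COL13A1 and 5 for ANK3. ANK3 also had only 5 leave-outs, against 6 for the others. DNM2, the ubiquitous dynamin that pinches vesicles from membranes, has a 12-nt exon (exon 14 of 21) that was included at 94.3, 97.7 and 94.6% in the 3 wild-type libraries and at 81.04, 78.05 and 85.6% in the AGO1/2 knockout libraries. The groups did not overlap, and inclusion fell by 13.96 points (log2 ratio change -2.25 ± 0.39, SE, limma adjusted p = 0.0027). In nuclei of the triple knockout it was at 85.97, 85.4 and 85.01% and fell by 10.1 points (limma adjusted p = 0.012), a call lost without nuclear AGO1/2/3 knockout passage 14 or without nuclear wild-type passage 28 (where the change was -8.98 to -9.84 points). NCKAP1, a subunit of the WAVE complex that drives actin branching, moved the other way, and it was named after its values were seen. Its 18-nt exon (exon 2 of 32) was included at 81.2, 80.5 and 79.9% in the 3 wild-type libraries and at 93.7, 93.96 and 93.1% in the AGO1/2 knockout libraries, again without overlap. It rose by 13.03 points (log2 ratio change 1.79 ± 0.15, SE, limma adjusted p = 2.6e-05), and by 12.02 points in AGO1/2/3 knockout nuclei, where it was at 91.9, 92.8 and 93.03% (limma adjusted p = 1.1e-04). In the cytoplasm its group means were 98.0 to 98.2%. DNM2 in AGO1/2/3 was no longer called in a fit of only the 2 groups.

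ASXL2 and SNX14 fell. The 3-nt exon of ASXL2, named after its values were seen, was included at 31.3, 39.1 and 36.03% in the 3 wild-type libraries and at 19.9, 21.1 and 20.7% in the AGO1/2 knockout libraries. The fall was 14.9 points (log2 ratio change -1.05 ± 0.17, SE, limma adjusted p = 0.0016), and 14.1 points in AGO1/2/3 knockout nuclei (limma adjusted p = 0.004). The 27-nt exon of SNX14 (exon 16 of 29), a sorting nexin, was at 34.9, 40.6 and 36.9% in the 3 wild-type libraries and at 19.4, 19.04 and 20.3% in the AGO1/2 knockout libraries. It fell by 17.9 points (log2 ratio change -1.29 ± 0.17, SE, limma adjusted p = 4.2e-04) and by 16.2 in AGO1/2/3 knockout nuclei. With only transcript pairs alike in every other intron the AGO1/2/3 difference was 0.460 points in the opposite direction. ASXL2 in AGO1/2 and AGO1/2/3 and SNX14 in AGO1/2/3 were no longer called in a fit of only the 2 groups. SNX14 in AGO1/2/3 was no longer called with transcripts of unchanged length only. SNX14 in AGO1/2 and AGO1/2/3 were no longer called with alike transcript pairs only.

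BAZ2B, a bromodomain protein of chromatin, rose. Its 27-nt exon was at 0, 7.4 and 6.64% in the 3 wild-type libraries and at 32.5, 23.2 and 30.2% in the AGO1/2 knockout libraries, with no overlap, and rose by 23.97 points (log2 ratio change 2.96 ± 0.52, SE, limma adjusted p = 0.0028). The rise was 17.1 points in AGO1/2/3 knockout nuclei (limma adjusted p = 0.012). The 24-nt exon of FLNA, filamin A, which crosslinks actin, was at 59.8, 59.7 and 58.7% in wild-type nuclei and 69.97, 71.04 and 71.5% in AGO1/2/3 knockout nuclei. It rose by 11.4 points there (limma adjusted p = 0.0089), and by 10.8 points in AGO1/2 knockout nuclei, a call lost without nuclear AGO1/2 knockout passage 11 (where the change was 9.95 points). The 30-nt exon of CYB5B, a mitochondrial cytochrome b5 named after its values were seen, was at 98.8, 96.2 and 96.4% in wild-type nuclei, and fell by 11.02 and 11.01 points in AGO1/2 and AGO1/2/3 knockout nuclei at a mean of 239 TPM. The 6-nt exon of CLEC16A, an autophagy gene, rose by 16.6 points in AGO1/2/3 knockout nuclei (limma adjusted p = 0.0036), and the 3-nt exon of CLASP2, a microtubule plus-end protein, by 18.6, a call lost without nuclear AGO1/2/3 knockout passage 14 (where the change was 16.7 points). BAZ2B in AGO1/2 and AGO1/2/3 and CYB5B in AGO1/2 and AGO1/2/3 were no longer called with estimated reads in place of TPM. BAZ2B in AGO1/2 and AGO1/2/3, FLNA in AGO1/2 and AGO1/2/3, CYB5B in AGO1/2/3, CLEC16A in AGO1/2/3 and CLASP2 in AGO1/2/3 were no longer called in a fit of only the 2 groups. FLNA in AGO1/2 was no longer called with protein-coding transcripts only. FLNA in AGO1/2 and AGO1/2/3 were no longer called with transcripts of unchanged length only.

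Several of the largest changes did not survive a change in which transcripts were compared. The 12-nt exon of EXOC6B, an exocyst subunit, was at 38.2, 39.95 and 42.96% in the 3 wild-type libraries and at 21.3, 18.03 and 15.1% in the AGO1/2 knockout libraries and fell by 22.2 points (log2 ratio change -1.58 ± 0.23, SE, limma adjusted p = 0.0011), with 21.4 points in AGO1/2/3 knockout nuclei. With transcripts of unchanged length only, it was 0.232 and 2.36 points higher. The AGK exon rose by 21.9 and 25.8 points, but the differences were -9.42 and -4.20 points with protein-coding transcripts only. The SEPTIN7 exon fell by 34.2 and 32.4 points, but was 0.545 and 2.79 points higher with protein-coding transcripts only. DHX30, an RNA helicase, fell by 19.7 points for its 29-nt exon in AGO1/2/3 knockout nuclei, with a difference of 0 in transcript pairs alike in every other intron. SFXN4, a mitochondrial protein, fell by 16.6 points for its 27-nt exon, and was 2.85 points higher with protein-coding transcripts only. The SFXN4 call was lost without nuclear AGO1/2/3 knockout passage 14 (where the change was -14.7 points). AGK in AGO1/2 and AGO1/2/3, DHX30 in AGO1/2 and SFXN4 in AGO1/2/3 were no longer called with estimated reads in place of TPM. EXOC6B in AGO1/2/3, AGK in AGO1/2 and AGO1/2/3, DHX30 in AGO1/2 and AGO1/2/3 and SFXN4 in AGO1/2/3 were no longer called in a fit of only the 2 groups. AGK in AGO1/2 and AGO1/2/3, SEPTIN7 in AGO1/2 and AGO1/2/3 and SFXN4 in AGO1/2/3 were no longer called with protein-coding transcripts only. EXOC6B in AGO1/2 and AGO1/2/3, DHX30 in AGO1/2 and AGO1/2/3 and SFXN4 in AGO1/2/3 were no longer called with transcripts of unchanged length only. SEPTIN7 in AGO1/2 and AGO1/2/3 and DHX30 in AGO1/2 and AGO1/2/3 were no longer called with alike transcript pairs only.

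Other large nuclear changes are given with the libraries whose omission ended the call. The 27-nt exon of ANK3, ankyrin-G, was at 11.1% in wild-type nuclei and 100% in AGO1/2 knockout nuclei, at a mean of 1.23 TPM. The 27-nt exon of the transmembrane collagen COL13A1 at 69872184 rose by 35.3 points in AGO1/2 at a mean of 3.51 TPM (limma adjusted p = 0.0079) and 34.1 in AGO1/2/3 knockout nuclei, the latter call lost without nuclear AGO1/2/3 knockout passage 12 or 14 or without nuclear wild-type passage 28 (where the change was 29.9 to 33.6 points). GK, glycerol kinase, fell by 21.9 points for its 18-nt exon at a mean of 1.14 TPM. The 12-nt exon of DNM1 fell by 24.3 points, a call lost without nuclear AGO1/2 knockout passage 9, 10 or 11 or without nuclear wild-type passage 27 or 28 (where the change was -21.6 to -24.4 points). The 21-nt exon of DDHD1, a phospholipase, fell by 23.5 points, a call lost without nuclear AGO1/2 knockout passage 9, 10 or 11 or without nuclear wild-type passage 28 (where the change was -18.7 to -24.4 points). The 30-nt exon of ARHGAP26 rose by 25.8 points, a call lost without nuclear AGO1/2 knockout passage 9 or 10 or without nuclear wild-type passage 28 (where the change was 17.8 to 23.7 points). In DNM3, the brain and testis dynamin, the 30-nt exon rose by 20.4 points, a call lost without nuclear AGO1/2 knockout passage 9, 10 or 11 or without nuclear wild-type passage 27 or 28 (where the change was 15.5 to 21.5 points). The 25-nt exon of the receptor IL17RA fell from 96.2% to 76.2%, a call lost without nuclear AGO1/2 knockout passage 10 or 11 or without nuclear wild-type passage 27 or 29 (where the change was -18.1 to -19.6 points). In AGO1/2/3 knockout nuclei the 18-nt exon of the calcium channel CACNA1H rose by 25.2 points, a call lost without nuclear AGO1/2/3 knockout passage 11 or 14 or without nuclear wild-type passage 27 or 28 (where the change was 20.9 to 26.1 points). The 29-nt exon of the phosphatase ACP1 fell by 16.1 points, a call lost without nuclear AGO1/2/3 knockout passage 11 or 14 or without nuclear wild-type passage 27 or 28 (where the change was -12.7 to -17.5 points). GK in AGO1/2, ARHGAP26 in AGO1/2, DNM3 in AGO1/2 and IL17RA in AGO1/2 were no longer called with estimated reads in place of TPM. COL13A1 in AGO1/2/3, GK in AGO1/2, DDHD1 in AGO1/2, ARHGAP26 in AGO1/2, DNM3 in AGO1/2, IL17RA in AGO1/2, CACNA1H in AGO1/2/3 and ACP1 in AGO1/2/3 were no longer called in a fit of only the 2 groups. CACNA1H in AGO1/2/3 was no longer called with protein-coding transcripts only. GK in AGO1/2, DNM3 in AGO1/2, CACNA1H in AGO1/2/3 and ACP1 in AGO1/2/3 were no longer called with transcripts of unchanged length only.

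Other called microexons with a transcript pair alike in every other intron and at least 5 TPM, chosen after their values were seen, were less steady. TEAD1 rose by 10.8 points, a call lost without nuclear AGO1/2 knockout passage 9, 10 or 11 or without nuclear wild-type passage 29 (where the change was 7.43 to 11.4 points). In AGO1/2/3 knockout nuclei TEAD1 rose by 13.6 points, a call lost without nuclear AGO1/2/3 knockout passage 11, 12 or 14 (where the change was 12.7 to 14.1 points). With transcripts of unchanged length only, and with alike pairs only, TEAD1 differed by 0 points in AGO1/2 and by -0.742 in AGO1/2/3 knockout nuclei. VPS29, a retromer subunit, rose by 12.3 points, a call lost without nuclear AGO1/2 knockout passage 9, 10 or 11 or without nuclear wild-type passage 27 or 29 (where the change was 10.96 to 12.4 points), for its 12-nt exon. In AGO1/2/3 knockout nuclei VPS29 rose by 15.8 points, a call lost without nuclear AGO1/2/3 knockout passage 12 or without nuclear wild-type passage 27 or 29 (where the change was 13.5 to 15.4 points). MON2, a trafficking protein, rose by 12.6 points, a call lost without nuclear AGO1/2 knockout passage 10 (where the change was 10.9 points), for its 18-nt exon, with a difference of -10.1 points in alike pairs only. The 21-nt exon of SENP6, a SUMO protease, fell by 10.7 points, a call lost without nuclear wild-type passage 28 (where the change was -9.07 points), and in AGO1/2/3 knockout nuclei by 10.3 points, a call lost without nuclear AGO1/2/3 knockout passage 14 or without nuclear wild-type passage 28 (where the change was -8.64 to -9.45 points). The 27-nt exon of MAX, the partner of MYC, fell by 13.4 points, a call lost without nuclear AGO1/2 knockout passage 10 or 11 or without nuclear wild-type passage 28 or 29 (where the change was -11.9 to -13.6 points). The 6-nt exon of HOOK2, a microtubule linker, fell by 18.8 points, a call lost without nuclear AGO1/2 knockout passage 10 (where the change was -16.99 points), and the 6-nt exon of NSFL1C, a p97 cofactor, rose by 10.03 points, a call lost without nuclear AGO1/2 knockout passage 9 or 11 or without nuclear wild-type passage 28 (where the change was 8.68 to 9.52 points). RHOC fell by 14.8 points, a call lost without nuclear AGO1/2 knockout passage 9 or 10 or without nuclear wild-type passage 28 or 29 (where the change was -12.4 to -15.7 points) in nuclei. PHTF2 fell by 10.1 points, a call lost without nuclear AGO1/2 knockout passage 9 or without nuclear wild-type passage 28 (where the change was -7.99 to -9.45 points), for its 12-nt exon, with 0 in alike pairs. TMEM237, a ciliary protein, fell by 17.1 points, a call lost without nuclear AGO1/2 knockout passage 9 or 10 or without nuclear wild-type passage 27 or 28 (where the change was -15.2 to -17.1 points), for its 5-nt exon, and was 33.7 points higher in alike pairs. DHX30 fell by 19.1 points in AGO1/2 knockout nuclei and was 10.0 points higher in alike pairs. In the cytoplasm of AGO1/2 knockout cells the PPP3CB exon fell by 10.1 points, a call lost without cytoplasmic AGO1/2 knockout passage 9, 10 or 11 or without cytoplasmic wild-type passage 28 or 29 (where the change was -7.32 to -11.4 points), and the call of MON2, a rise of 11.4 points, ended when any of the 6 libraries was left out. SENP6 in AGO1/2 and AGO1/2/3, MON2 in AGO1/2, PHTF2 in AGO1/2 and TMEM237 in AGO1/2 were no longer called with estimated reads in place of TPM. TEAD1 in AGO1/2 and AGO1/2/3, VPS29 in AGO1/2 and AGO1/2/3, SENP6 in AGO1/2 and AGO1/2/3, MON2 in AGO1/2, MAX in AGO1/2, HOOK2 in AGO1/2, NSFL1C in AGO1/2, RHOC in AGO1/2 and TMEM237 in AGO1/2 were no longer called in a fit of only the 2 groups. VPS29 in AGO1/2 and AGO1/2/3, MON2 in AGO1/2 and TMEM237 in AGO1/2 were no longer called with protein-coding transcripts only. TEAD1 in AGO1/2 and AGO1/2/3, VPS29 in AGO1/2, RHOC in AGO1/2 and TMEM237 in AGO1/2 were no longer called with transcripts of unchanged length only. TEAD1 in AGO1/2 and AGO1/2/3, VPS29 in AGO1/2 and AGO1/2/3, SENP6 in AGO1/2 and AGO1/2/3, MON2 in AGO1/2, NSFL1C in AGO1/2, PHTF2 in AGO1/2 and TMEM237 in AGO1/2 were no longer called with alike transcript pairs only. In the cytoplasm, MON2 was no longer called without a TPM minimum. PPP3CB and MON2 were no longer called with estimated reads in place of TPM. PPP3CB and MON2 were no longer called in a fit of only the 2 groups. MON2 was no longer called with protein-coding transcripts only. PPP3CB and MON2 were no longer called with transcripts of unchanged length only. PPP3CB and MON2 were no longer called with alike transcript pairs only.

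When inclusion was recomputed in the whole table from such alike pairs only, 16 of 251 microexons were called in AGO1/2 and 15 in AGO1/2/3 knockout nuclei, beside 6.88% and 4.90% of all exons with a pair. In the fit on all transcripts, 23 of 289 microexons with a pair (7.96%) and 16 of 358 without one (4.47%) were called in AGO1/2 knockout nuclei, beside 5.22% and 4.31% of all exons.

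**Figure D3:**
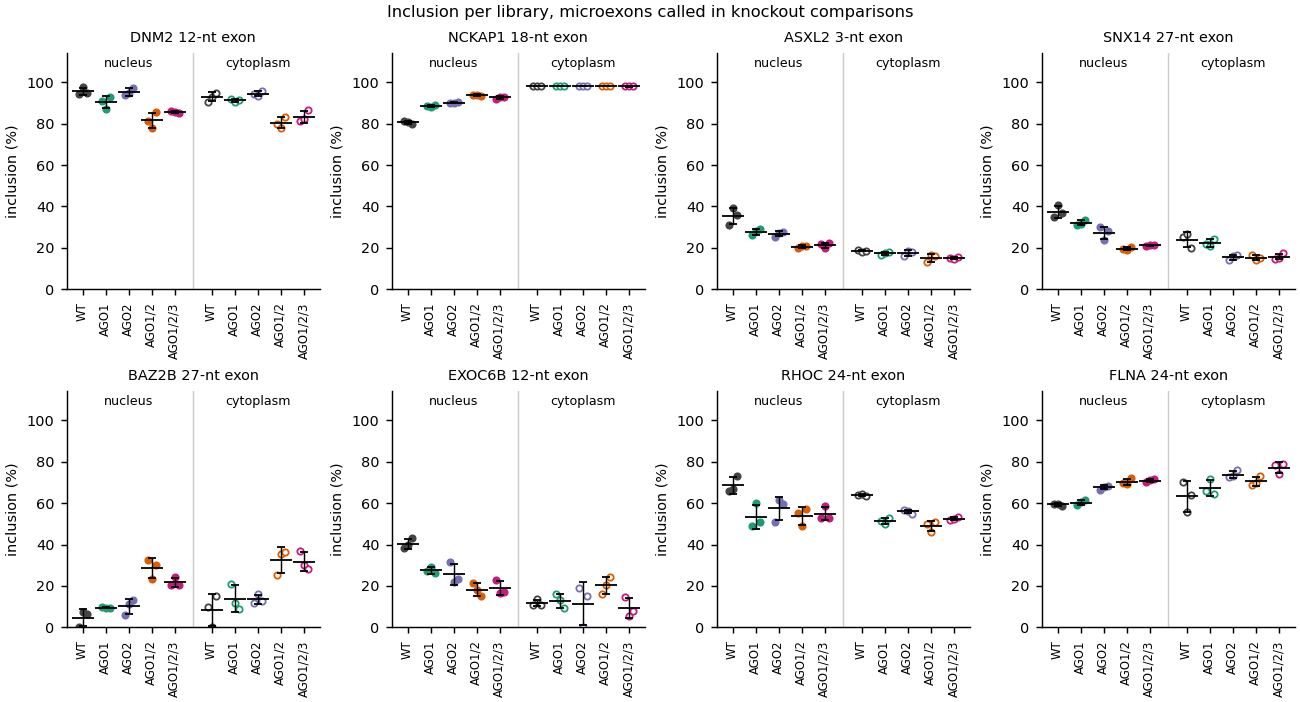
Inclusion (%, vertical) in each of the 30 libraries for 8 microexons called in a knockout comparison, by genotype, with nuclear RNA on the left (filled) and cytoplasmic RNA on the right (open). Bars are the mean and SD of 3 libraries, and in nuclear RNA the AGO1/2 knockout points of DNM2 lie below, and those of NCKAP1 above, all wild-type points.

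In cytoplasmic RNA fewer microexons were called. There were 17 of 613 in the AGO1/2 knockout, 9 higher and 8 lower, beside 1.52% of all exons (0.736% gained and 0.783% lost), and the microexon share was 2.77%. There were 14 in the AGO1/2/3 knockout, 9 higher and 5 lower, beside 0.678% of all exons (0.336% gained and 0.342% lost), and the microexon share was 2.28%. Multiples of 3 were 14 of 17 and 12 of 14, beside 68.8% of tested cytoplasmic microexons and 53.6% and 64.3% of all called exons. These counts moved with single libraries. Without cytoplasmic AGO1/2 passage 10 there were 11 calls in place of 17, beside 0.944% of all exons. Without cytoplasmic AGO1/2/3 passage 11, 12 or 14 there were 4, 8 and 5 in place of 14, beside 0.383%, 0.468% and 0.405%.

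DNM2 fell in the cytoplasm too. Its 12-nt exon was included at 90.5, 93.05 and 94.9% in the 3 wild-type libraries and at 79.9, 77.9 and 83.1% in the AGO1/2 knockout libraries, without overlap, and fell by 12.5 points (log2 ratio change -1.66 ± 0.26, SE, limma adjusted p = 0.0017). RHOC has a 24-nt 5′ UTR exon that was at 64.1, 64.4 and 63.6% in the 3 wild-type libraries and at 49.98, 46.04 and 50.6% in the AGO1/2 knockout libraries. It fell by 15.1 points (log2 ratio change -0.89 ± 0.12, SE, limma adjusted p = 8.3e-04), and by 11.6 points in the AGO1/2/3 knockout (limma adjusted p = 0.009). The 9-nt exon of ASAP1, an Arf GTPase-activating protein, fell by 14.4 points in the AGO1/2 knockout (limma adjusted p = 0.011) and by 15.0 in the AGO1/2/3 knockout, a call lost without cytoplasmic AGO1/2/3 knockout passage 11 or 14 or without cytoplasmic wild-type passage 28 (where the change was -14.5 to -14.8 points). PROM1, the membrane protein CD133, had a 25-nt 3′ UTR exon at 18.5, 8.83 and 12.8% in wild-type cytoplasm and at 0% in every cytoplasmic knockout group. The BAZ2B exon rose by 24.1 points in the AGO1/2 knockout and by 23.2 in the AGO1/2/3 knockout, the latter call lost without cytoplasmic AGO1/2/3 knockout passage 11, 12 or 14 (where the change was 20.7 to 24.97 points). The 24-nt exon of SYNJ1, the phosphoinositide phosphatase synaptojanin, rose by 12.8 points in the AGO1/2 knockout and 18.2 in the AGO1/2/3 knockout, the latter call lost without cytoplasmic AGO1/2/3 knockout passage 11 (where the change was 14.3 points). OCIAD1 rose by 16.03 points for its 23-nt 5′ UTR exon in the AGO1/2/3 knockout. PROM1 in AGO1/2/3 was no longer called with a pseudocount of 1 TPM. PROM1 in AGO1/2 and AGO1/2/3, BAZ2B in AGO1/2 and AGO1/2/3, SYNJ1 in AGO1/2 and AGO1/2/3 and OCIAD1 in AGO1/2/3 were no longer called with estimated reads in place of TPM. RHOC in AGO1/2 and AGO1/2/3, PROM1 in AGO1/2 and AGO1/2/3, BAZ2B in AGO1/2 and AGO1/2/3, SYNJ1 in AGO1/2 and AGO1/2/3 and OCIAD1 in AGO1/2/3 were no longer called in a fit of only the 2 groups.

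Each of the following cytoplasmic calls ended when some single library was left out. The calls of ANXA6, CLASP1 and TIMM50 in AGO1/2 and of MEF2C in AGO1/2/3 knockout cytoplasm lay outside the naming rule and were not examined further. The 18-nt and 15-nt exons of ASAH1, acid ceramidase, share an end, and the 18-nt one rose by 19.8 points in the AGO1/2 knockout, a call lost without cytoplasmic AGO1/2 knockout passage 9 or without cytoplasmic wild-type passage 27 or 28 (where the change was 6.06 to 19.3 points), and by 24.2 in the AGO1/2/3 knockout, a call lost without cytoplasmic AGO1/2/3 knockout passage 14 (where the change was 17.8 points). The 15-nt exon of ASAH1 rose by 43.05 points in the AGO1/2/3 knockout, a call lost without cytoplasmic AGO1/2/3 knockout passage 11, 12 or 14 or without cytoplasmic wild-type passage 27 or 28 (where the change was 33.8 to 53.8 points). HMGN5, a nucleosome-binding protein, carried 2 exons of 30 nt, of which the one at 81118730 rose by 37.01 points and the one at 81119788 fell by 27.6 in the AGO1/2 knockout. Both calls were lost without cytoplasmic AGO1/2 passage 10. In the AGO1/2/3 knockout the latter HMGN5 exon fell by 22.5 points, a call lost without cytoplasmic AGO1/2/3 knockout passage 11, 12 or 14 or without cytoplasmic wild-type passage 27 or 29 (where the change was -18.8 to -25.98 points). The MEF2C exon rose by 16.6 points in the AGO1/2 knockout, but the difference was -3.10 points without cytoplasmic AGO1/2 passage 9, 30.8 without passage 10 and -0.514 with estimated reads in place of TPM. DTNB, a dystrobrevin, rose by 14.3 points for its 21-nt exon in the AGO1/2 knockout, a call lost without cytoplasmic AGO1/2 knockout passage 10 (where the change was 12.6 points), and by 14.3 in the AGO1/2/3 knockout, where leaving out any of the 6 libraries ended the call and transcript pairs alike in every other intron gave 0. ZBTB8OS fell by 17.8 points for its 25-nt exon in the AGO1/2 knockout, a call lost without cytoplasmic AGO1/2 knockout passage 9, 10 or 11 or without cytoplasmic wild-type passage 28 or 29 (where the change was -12.8 to -20.3 points). In the AGO1/2/3 knockout, CPEB4, a cytoplasmic polyadenylation protein, fell by 21.1 points for its 24-nt exon, a call that ended when any of the 6 libraries was left out. ASAH1 (18-nt exon) in AGO1/2, ASAH1 (15-nt exon) in AGO1/2/3, HMGN5 (exon at 81119788) in AGO1/2 and AGO1/2/3, MEF2C in AGO1/2, DTNB in AGO1/2 and AGO1/2/3, ZBTB8OS in AGO1/2 and CPEB4 in AGO1/2/3 were no longer called with estimated reads in place of TPM. ASAH1 (18-nt exon) in AGO1/2, ASAH1 (15-nt exon) in AGO1/2/3, HMGN5 (exon at 81118730) in AGO1/2, HMGN5 (exon at 81119788) in AGO1/2 and AGO1/2/3, MEF2C in AGO1/2, ZBTB8OS in AGO1/2 and CPEB4 in AGO1/2/3 were no longer called in a fit of only the 2 groups. ASAH1 (18-nt exon) in AGO1/2/3 and ASAH1 (15-nt exon) in AGO1/2/3 were no longer called with protein-coding transcripts only. ASAH1 (15-nt exon) in AGO1/2/3 and ZBTB8OS in AGO1/2 were no longer called with transcripts of unchanged length only. ASAH1 (18-nt exon) in AGO1/2/3, ASAH1 (15-nt exon) in AGO1/2/3 and DTNB in AGO1/2 and AGO1/2/3 were no longer called with alike transcript pairs only.

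FLNA, CLASP1 and the kinesin KIF21A completed the named cytoplasmic exons. The FLNA exon rose by 13.7 points in the AGO1/2/3 knockout, a call lost without cytoplasmic AGO1/2/3 knockout passage 11 or 14 or without cytoplasmic wild-type passage 28 or 29 (where the change was 9.95 to 13.97 points). The 27-nt exon of CLASP1, a microtubule plus-end protein, rose by 12.1 points, a call lost without cytoplasmic AGO1/2/3 knockout passage 11, 12 or 14 or without cytoplasmic wild-type passage 28 or 29 (where the change was 10.7 to 12.4 points). The 21-nt exon of KIF21A, a kinesin motor whose microexon was examined in the study, was at 21.8, 21.7 and 24.03% in wild-type nuclei, 27.3, 21.1 and 27.6% in AGO1/2 and 23.3, 23.6 and 25.9% in AGO1/2/3 knockout nuclei. These groups differed by 2.8 and 1.72 points, with limma adjusted p = 0.51 and 0.71, and were not called. Cytoplasmic group means were 18.0 to 20.1%. The paper reported a gain of this exon from its RNA-seq. By PCR it reported the gain in AGO1/2/3 but not AGO1/2 knockout cells, and in DROSHA knockout cells. TPM of whole transcripts, used here, is a different measure from PCR of the exon. FLNA was no longer called with estimated reads in place of TPM. FLNA and CLASP1 were no longer called in a fit of only the 2 groups. CLASP1 was no longer called with transcripts of unchanged length only. FLNA was no longer called with alike transcript pairs only.

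Few microexons were called in the single knockouts. In nuclear RNA, 1 was called in the AGO1 knockout, beside 0.082% of all exons, and 3 in the AGO2 knockout, beside 0.439%. In cytoplasmic RNA, 2 were called in the AGO1 knockout, beside 0.116%, and 5 in the AGO2 knockout, beside 0.236%. At an unadjusted p of 0.05, 105 and 122 nuclear and 84 and 113 cytoplasmic microexons passed in the AGO1 and AGO2 knockouts. These were 16.2%, 18.9%, 13.7% and 18.4% of tested microexons, beside 13.3%, 15.5%, 12.6% and 16.1% of all tested exons. Leaving out 1 library gave 0 to 2 and 1 to 5 nuclear and 1 to 3 and 1 to 6 cytoplasmic calls for AGO1 and AGO2. Shares over all exons were then 0.0482 to 0.174% and 0.14 to 0.367% in the nucleus, and 0.0947 to 0.19% and 0.0788 to 0.248% in the cytoplasm. The nuclear AGO1 count was 0 without any of the 3 AGO1 passages or wild-type passage 28 or 29, and 2 without wild-type passage 27. The nuclear AGO2 count was 1 without AGO2 passage 9 and 5 without wild-type passage 27. The cytoplasmic AGO1 count was 1 without AGO1 passage 6 or 7 or wild-type passage 27, and the AGO2 count 1 without AGO2 passage 8 and 2 without passage 9 or 10 or wild-type passage 27. The nuclear call of ATXN3, the polyglutamine protein ataxin-3, was a 27-nt exon that fell by 29.1 points in both single knockouts. It was at 16.7, 32.7 and 38.01% in wild-type nuclei and at 0% in the AGO1 and AGO2 knockouts, and the AGO1 call was lost without nuclear AGO1 knockout passage 6, 7 or 8 or without nuclear wild-type passage 28 or 29 (where the change was -24.7 to -29.2 points) and the AGO2 call without nuclear AGO2 knockout passage 8, 9 or 10 or without nuclear wild-type passage 28 or 29 (where the change was -24.7 to -29.2 points). The 29-nt exon of ADAM15, a disintegrin metalloprotease, fell by 12.1 points in AGO2 knockout nuclei (limma adjusted p = 0.0068), and a 24-nt exon of PRKACB at 84175033 rose by 60.3, a call lost without nuclear AGO2 knockout passage 9 (where the change was 52.9 points). In the cytoplasm the PROM1 exon fell in both single knockouts, by 13.4 points. RHOC fell by 12.5 points in the AGO1 knockout, a call lost without cytoplasmic AGO1 knockout passage 6, 7 or 8 or without cytoplasmic wild-type passage 27 or 28 (where the change was -11.8 to -13.2 points). In the AGO2 knockout ASAP1 fell by 15.6 points, a call lost without cytoplasmic AGO2 knockout passage 8 or 10 or without cytoplasmic wild-type passage 28 or 29 (where the change was -14.01 to -15.1 points). HMGN5 at 81119788 fell by 31.4, a call lost without cytoplasmic AGO2 knockout passage 8, 9 or 10 or without cytoplasmic wild-type passage 27 or 29 (where the change was -23.4 to -36.6 points). The 18-nt exon of ASAH1 rose by 21.8, a call lost without cytoplasmic AGO2 knockout passage 8, 9 or 10 or without cytoplasmic wild-type passage 27 or 28 (where the change was 17.9 to 25.8 points). TBL1XR1, a corepressor subunit, rose by 11.8 for its 24-nt exon, a call lost without cytoplasmic AGO2 knockout passage 8 or 9 or without cytoplasmic wild-type passage 27, 28 or 29 (where the change was 8.15 to 11.8 points). ATXN3 in AGO1, PRKACB in AGO2, PROM1 in AGO1 and AGO2, HMGN5 (exon at 81119788) in AGO2, ASAH1 (18-nt exon) in AGO2 and TBL1XR1 in AGO2 were no longer called with estimated reads in place of TPM. ATXN3 in AGO1 and AGO2, ADAM15 in AGO2, PRKACB in AGO2, RHOC in AGO1, ASAP1 in AGO2, HMGN5 (exon at 81119788) in AGO2, ASAH1 (18-nt exon) in AGO2 and TBL1XR1 in AGO2 were no longer called in a fit of only the 2 groups. ASAH1 (18-nt exon) in AGO2 was no longer called with protein-coding transcripts only. RHOC in AGO1, ASAH1 (18-nt exon) in AGO2 and TBL1XR1 in AGO2 were no longer called with transcripts of unchanged length only. ASAH1 (18-nt exon) in AGO2 was no longer called with alike transcript pairs only.

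Whether the AGO1/2/3 knockout acted differently on nuclear and cytoplasmic inclusion was tested with an interaction term over 640 microexons. It was called for 13, of which 4 had a higher and 9 a lower effect in the nucleus, beside 1.81% of all exons (0.804% and 1%). NCKAP1, whose exon rose in the nucleus, differed by 12.2 points between fractions, and CLEC16A by 14.4 points. Whether single exons kept this call in the alternatives or with libraries left out was not examined. Without cytoplasmic AGO1/2/3 passage 14 or nuclear AGO1/2/3 passage 12 or 14 there were 8 calls in place of 13. Of all exons 1.33%, 1.42% and 1.2% were then called.

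Called microexons were also counted by the function of the host, beside 6.03% of all tested microexons in AGO1/2 knockout nuclei. In nuclear AGO1/2 knockout cells, of 86 tested microexons in neural hosts 3 rose and 2 fell (ANK3, CLASP1, CLASP2, DNM2 and MON2), which is 5.81%, with a median change of 0. Of 52 in cytoskeleton and adhesion genes 3 rose and 1 fell (AFDN, ANK3, CLASP1 and CLASP2), which is 7.69%, and of 19 in endocytosis and vesicle traffic genes 2 rose and 1 fell (DNM2, MON2 and VPS29), which is 15.8%. None was called of 22 in GTPase and kinase signalling, of 14 in transcription, chromatin and RNA genes, or of 1 in the regulators themselves. These lists overlap, and the median change over all tested microexons was also 0. In AGO1/2/3 knockout nuclei 3.40% of all tested microexons and 2.88% of all exons were called. Of 86 in neural hosts 1 rose and 1 fell (2.33%), and of 52 in the cytoskeleton list 1 rose and 0 fell (1.92%). Of 19 in vesicle traffic 1 rose and 1 fell (10.5%), and the other lists had 0 calls. In wild-type cells the nuclear and cytoplasmic fractions differed for 10 of 84 neural host microexons, 4 higher and 6 lower in the nucleus, which is 11.9% beside 14.8% of all tested microexons.

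Regulators of microexons were measured as genes. SRRM4, the neural activator, was at most 0.0607 TPM in any library. Of 32 listed regulators 28 were tested, and 25 were called in AGO1/2 knockout nuclei, 16 higher and 9 lower. Over all genes 67.6% were called, 32.9% higher and 34.7% lower. In AGO1/2/3 knockout nuclei 20 were called, 12 higher and 8 lower, beside 58.6% of all genes (29.1% higher and 29.5% lower). The shares for regulators were 89.3% and 71.4%. RBM24, a splicing activator of muscle, rose by 2.66 and 1.98 on the log2 scale, MBNL2 by 1.46 and 1.33, SRRM3, a paralogue of SRRM4, by 0.78 and 0.57, and PTBP1 by 0.66 and 0.47. In the cytoplasm of the same lines PTBP1 went the other way, with log2 differences of -0.47 (edgeR adjusted p = 3.8e-04) and -0.21 (edgeR adjusted p = 0.06, not called). KHDRBS1, HNRNPC and SF1 likewise rose in the nucleus and fell in the cytoplasm in both lines. ESRP1, the epithelial splicing regulator, fell by 2.21 and 1.71, and PTBP2, the neural PTB protein, by 1.41 and 1.25. QKI, TRA2A and SRRM4 were not called in AGO1/2 knockout nuclei, and RBFOX1, RBFOX3, NOVA1 and CELF2 were not tested because their counts were too low. Differences are edgeR values with Benjamini-Hochberg adjustment, and these levels were not related to single microexons.

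**Figure D4:**
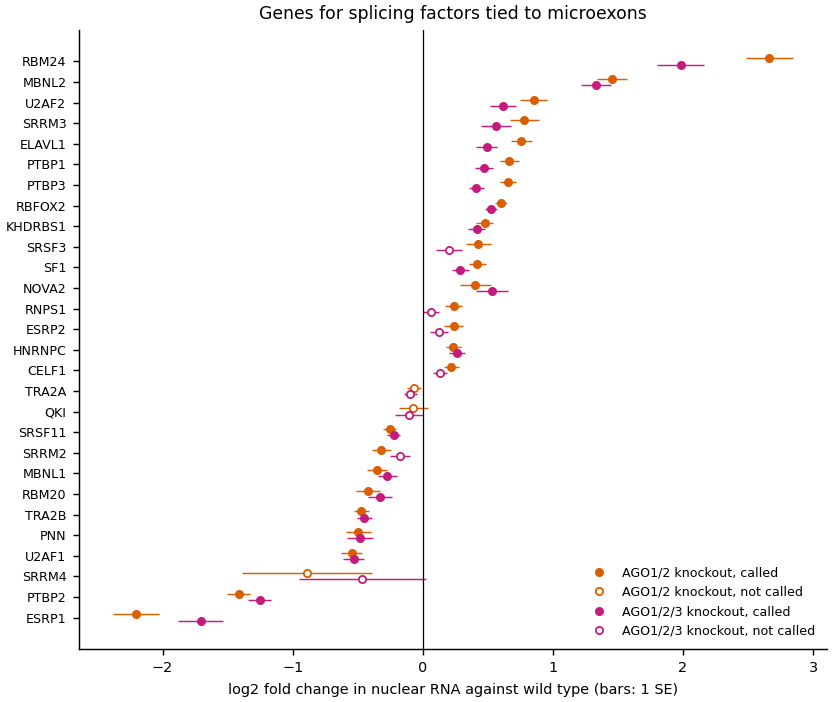
log2 fold change (horizontal, knockout over wild type) with SE of each tested regulator gene in nuclear RNA, for the AGO1/2 and AGO1/2/3 knockouts. Points to the right of 0 are higher in the knockout, RBM24 being the farthest right and ESRP1 the farthest left.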

How the data were processed

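Nuclear and cytoplasmic RNA of 5 HCT116 genotypes was measured in 30 RNA-seq libraries, 3 per group, with groups taken from the labels. The 8 eCLIP samples were not used here. The authors removed ribosomal RNA, made stranded paired-end libraries, used STAR for alignment (hg38) and Salmon for transcript abundance (2.5.3a and 0.11.0 in the submitters' processing notes). Salmon splits reads between overlapping transcripts, so inclusion of a microexon rests on reads over the whole transcript and not on junction reads. The deposited TPM values are scaled by transcript length and library total, and the deposited estimated counts are not normalized.

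The annotation release named in the study could not be matched, and GENCODE release 44 was used: 195887 of 200401 transcript identifiers matched without version. Inclusion was tested with limma 3.58.1 (eBayes with trend, R 4.3.3) on log2((inclusion TPM + 0.1)/(skipping TPM + 0.1)), which understates changes of low exons, over all skipped-exon events averaging at least 1 TPM, with 1 fit per fraction that held its 5 genotypes and Benjamini-Hochberg adjustment over all events. Calls are events with adjusted p up to 0.05 that moved by 10 points or more. Genes were tested with edgeR 4.0.16 (quasi-likelihood, TMM, filterByExpr with a minimum count of 10) on estimated counts summed per gene and rounded, with DESeq2 1.42.0 as an alternative. An exact two-sided permutation of 3 against 3 libraries cannot go below p = 0.1. Tables were made with pandas 2.3.3 and numpy 2.4.6 in Python 3.11.15, and plots with matplotlib 3.10.9. Both fits were tested on simulated data.

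The microexons named were the called ones with the largest change (at most 12 in each double and triple knockout comparison and 5 in each single one, and 8 between wild-type fractions), the 10 most abundant in neural host genes, the 10 most abundant at 20 to 80% inclusion, and the KIF21A exon. Others are said to be chosen after their values were seen. Members and lists were chosen with earlier results of these data known. Alternatives were the pseudocount, the TPM minimum, estimated reads, protein-coding transcripts, a fit of 2 groups, each library left out, culture as a replicate block and, for genes, RLE factors, no filter and DESeq2. Libraries held 20431557 to 79731793 estimated reads, and precision is set by the spread among 3 passages.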

Additional observations from a re-analysis of the deposited data

Results flagged for a closer look

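For 13 microexons the effect of the AGO1/2/3 knockout on inclusion differed between nuclear and cytoplasmic RNA by the limma interaction test. The differences, nuclear effect minus cytoplasmic effect, were positive for AGK (29.8 points, 4-nt exon), ASAP1 (20.91, 9-nt exon), CLEC16A (14.36, 6-nt exon) and NCKAP1 (12.21, 18-nt exon). They were negative for CYB5B (-10.53 points, 30-nt exon), PTK2 (-10.07, 21-nt exon), ADAM15 (-12.51, 29-nt exon), CLASP1 (-13.64, 27-nt exon), MED23 (-15.43, 18-nt exon), SFXN4 (-17.1, 27-nt exon), SYNJ1 (-28.96, 24-nt exon), SEPTIN7 (-32.76, 5-nt exon) and the COL13A1 exon of 27 nt at 69878039 (-131.8), which averaged 1.002 TPM. MED23 and PTK2 were named because they are among the 13. For none of the 13 was this difference followed in the alternatives or with libraries left out, where only the count of calls was repeated. With protein-coding transcripts only, the nuclear AGO1/2/3 changes of AGK, SEPTIN7 and SFXN4 turned to -4.20, 2.79 and 2.85 points. The NCKAP1 exon was close to full inclusion in all cytoplasmic groups.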

How the results depend on the processing

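With a pseudocount of 1 TPM the nuclear calls were 6 and 11 for the AGO1 and AGO2 knockouts and 59 and 40 for the double and triple knockouts. Of all exons 0.825%, 1.7%, 6.73% and 4.55% were then called. Cytoplasmic calls were 5 and 13 for the single knockouts and 22 for AGO1/2/3, beside 0.405%, 0.788% and 1.46%. The difference between fractions gave 33, beside 4.08%. A fit of only the 2 groups gave 0, 0, 13 and 4 in the nucleus, beside 0%, 0.0529%, 1.73% and 0.516% of all exons. In the cytoplasm it gave 2, 4 and 3 for AGO2, AGO1/2 and AGO1/2/3, beside 0.13%, 0.429% and 0.228%. A minimum of 5 TPM, which leaves fewer exons, gave 1, 1, 6 and 4 in the cytoplasm. Of all exons 0.0772%, 0.146%, 1.21% and 0.54% were called there. Between wild-type fractions it gave 54 of 430, beside 11.9%. Estimated reads gave 0 in nuclear AGO1, beside 0.0241% of all exons. They gave 1, 1, 5 and 5 in the cytoplasm, beside 0.0315%, 0.0368%, 0.599% and 0.363%. For the difference between fractions they gave 4, beside 0.779%. Protein-coding transcripts gave 1 and 2 in the cytoplasmic single knockouts, beside 0.148% and 0.257%. Of the alternatives chosen after seeing the data, transcripts of unchanged length gave 0, 2 and 7 in cytoplasmic AGO1, AGO2 and AGO1/2/3. Of all exons 0.124%, 0.199% and 0.763% were then called. Alike transcript pairs, which test fewer exons, gave 16 in nuclear AGO1/2, beside 6.88%. They gave 1, 0, 5 and 3 in the cytoplasm, beside 0.277%, 0.307%, 2.31% and 1.2%. Between wild-type fractions they gave 49 of 250, beside 20.3%. Apart from the smaller sets of exons, the cause was not tested.

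Leaving out each library gave 0 to 2, 1 to 5, 25 to 38 and 17 to 30 calls in the nuclear knockouts. Of all exons 0.0482 to 0.174%, 0.14 to 0.367%, 3.32 to 4.41% and 1.69 to 2.87% were called. Cytoplasmic calls were 1 to 3, 1 to 6, 11 to 20 and 4 to 16. Their shares of all exons were 0.0947 to 0.19%, 0.0788 to 0.248%, 0.944 to 1.64% and 0.383 to 0.923%. There were 84 to 97 calls between wild-type fractions, beside 13.3 to 14%, and 8 to 15 for the difference between fractions, beside 1.2 to 2.17%. Regulator counts stayed at 25 to 26 and 20 to 22 in every alternative, DESeq2 included, while the share of all genes called moved. In the main fit it was 67.6% and 58.6%, with 28 regulators tested. Without the filter it was 37.3% and 31.8%, with 31 tested, and with DESeq2 52.6% and 46.2%, with 32 tested. RLE factors gave 67.5% and 58.5%, and leaving out 1 library 61.8 to 66.9% and 51.7 to 59.9%.

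Some differences turned direction or came to 0. With protein-coding transcripts SEPTIN7 was 0.545 (AGO1/2) and 2.79 (AGO1/2/3), AGK -9.42 and -4.20, and SFXN4 2.85 points (AGO1/2/3). With transcripts of unchanged length EXOC6B was 0.232 and 2.36 and TEAD1 0 and -0.742. With alike pairs SEPTIN7 was 0.545 and 2.79, and 0 between wild-type fractions, TEAD1 0 and -0.742, DHX30 10.0 and 0, PHTF2 0, MON2 -10.1, TMEM237 33.7 (AGO1/2), SNX14 0.460 (AGO1/2/3) and DTNB 0 (cytoplasmic AGO1/2/3). MEF2C (cytoplasmic AGO1/2) was -0.514 with estimated reads and -3.10 without AGO1/2 passage 9, and 30.8 without passage 10, and PRKACB between wild-type fractions was 8.49 without nuclear passage 28 and -91.5 without passage 29. The cause was not tested.

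Nuclear and cytoplasmic libraries share passage numbers. Deviations from group means correlated at -0.0111 to 0.101 within a passage and, on average, at -0.0533 to 0.00564 with other passages. Correlations this low cannot show whether both fractions came from the same culture. With culture as a replicate block, 91 microexons in place of 95 were called between wild-type fractions and 10 in place of 13 for the difference between fractions. Of all exons 13.6% in place of 14% and 1.3% in place of 1.81% were then called. No paired analysis was possible for knockouts against wild type because they share no passage number.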
